A study of Mus musculus with 8 samples.

Results

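The genes described here are Bcan, Ceacam16, Hexim2, Clca1, Gm51671, Gm51785 and Gm30541, 7 of the 49997 genes in the count table, selected by symbol from a list described as lower after 12-HETE treatment and level or higher with ADAR1 p150 overexpression. The counts of Bcan go against the second part of that description, as its level was also lower with overexpression. The measured values in both experiments, and the difference between them, therefore chose these genes, so their values in those comparisons are given as a description with no test. The rule sets no numerical threshold. RNA-seq was performed on EO771 cells, a mouse mammary carcinoma line, in 4 groups of 2 libraries each. In the first experiment cells were kept for 48 h in vehicle (2% DMSO in saline) or exposed to 12-HETE at 100 nM, a lipid made from arachidonic acid by 12-lipoxygenase. In the second experiment cells carried an empty vector or a vector for overexpression of ADAR1 p150, the longer and interferon-inducible isoform of an enzyme that converts adenosine to inosine in double-stranded RNA. All 8 libraries came from the same line, and cells that received 12-HETE and the ADAR1 p150 vector together were not analysed here. The paper describes an RNA editing comparison of these treatments as independent experiments but does not tie this to the libraries by replicate number, and the labels do not say whether replicates were separate cultures, so p-values measure only the spread between these libraries.

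Hexim2 encodes a protein that binds the 7SK small nuclear RNA and holds the elongation kinase P-TEFb, a complex of CDK9 and a T-type cyclin, in an inactive form, which limits the release of paused RNA polymerase II. Bcan encodes brevican, a chondroitin sulphate proteoglycan of the lectican family that binds hyaluronan and tenascin-R and is best known from the extracellular matrix of the brain. Ceacam16 encodes a secreted member of the carcinoembryonic antigen family that is part of the tectorial membrane of the inner ear, and Clca1 encodes a secreted metalloprotease of goblet cells that increases the calcium-activated chloride current carried by ANO1. Gm51671, Gm51785 and Gm30541 are annotated as long non-coding RNAs, and no function is given for them in the annotation used.

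The 7 genes lie at 7 places on 6 chromosomes of GRCm38.p6. Bcan (chr3:87987531-88002175) and Clca1 (chr3:145004537-145032776) are both on the minus strand of chromosome 3, far apart. Ceacam16 (chr7:19852097-19871426) is on the minus strand, and Hexim2 (chr11:103123260-103139908) is on the plus strand. Gm51785 (chr10:120451004-120463192) is on the plus strand, Gm30541 (chr19:53306741-53326867) is on the minus strand, and the strand of Gm51671 (chr1:168346170-168401494) is not known from the annotations used. Gm51785 lies within and Gm30541 across the span of a protein-coding gene, whereas no annotated gene overlaps Bcan, Hexim2 or Clca1. Strand matters for these values. The paper's methods name a directional library kit for these treatments, while the sample labels name a different kit. The strand setting used when fragments were counted is not given in the sources used here. Reads of a gene and of a partner on the opposite strand therefore cannot be told apart.

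Promoter sequences from RefSeq (GRCm38.p6) were held for 3 of the 7 genes, with 5 start sites in all. They are shown because the genes share a pattern over the 4 groups and their start regions can be compared directly. Each runs 5' to 3' on the strand of the gene, from 250 bases before the start to 50 bases after it, and capitals mark a match on either strand to CCAAT (the box of that name), the TATA box with the letters TATAAA, the GC box with the letters GGGCGG, the E-box with the letters CACGTG, the AP-1 site with the letters TGANTCA, the CRE with the letters TGACGTCA or the core of the interferon-stimulated response element. The first listed start of each gene is printed, at chr3:88000307-88000606 (minus strand) for Bcan, chr10:120450754-120451053 (plus strand) for Gm51785 and chr19:53326818-53327117 (minus strand) for Gm30541.
Bcan: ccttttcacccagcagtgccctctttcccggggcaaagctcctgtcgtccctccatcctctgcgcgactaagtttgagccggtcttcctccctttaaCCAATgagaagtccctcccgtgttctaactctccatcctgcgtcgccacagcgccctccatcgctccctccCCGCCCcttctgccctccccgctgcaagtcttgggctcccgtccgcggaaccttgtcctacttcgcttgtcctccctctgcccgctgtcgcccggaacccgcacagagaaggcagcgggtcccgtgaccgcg
Gm51785: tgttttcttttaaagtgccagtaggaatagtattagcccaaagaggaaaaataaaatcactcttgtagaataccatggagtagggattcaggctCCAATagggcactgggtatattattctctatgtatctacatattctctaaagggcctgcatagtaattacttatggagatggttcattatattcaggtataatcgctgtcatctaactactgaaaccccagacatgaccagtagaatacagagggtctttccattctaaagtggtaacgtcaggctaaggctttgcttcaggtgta
Gm30541: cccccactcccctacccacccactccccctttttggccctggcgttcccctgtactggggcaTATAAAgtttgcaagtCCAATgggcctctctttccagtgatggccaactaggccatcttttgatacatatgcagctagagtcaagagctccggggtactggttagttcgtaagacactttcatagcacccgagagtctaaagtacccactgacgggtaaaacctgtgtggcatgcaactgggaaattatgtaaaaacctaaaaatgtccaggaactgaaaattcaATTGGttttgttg
The 3 regions differed in base composition. The Bcan promoter had a GC content of 64.0% and 24 CpG dinucleotides, compared with medians of 52.7% and 7 over the 32851 RefSeq promoters. Those of Gm51785 and Gm30541 had a GC content of 38.7% and 48%, with 2 and 5 CpG dinucleotides. A CCAAT box was present in each of the 3 printed sequences and in 37.4% of all promoters. A GC box was found in the printed Bcan sequence (35.7% of all promoters) and a TATA box in that of Gm30541 (13.6% of all promoters). Among the other start sites, which are not printed, the second promoter of Gm51785 held a TATA box and that of Gm30541 an AP-1 site, a motif in 7.81% of all promoters. No CRE, E-box or response element core was found in any of the 5 windows, and such motifs were present in 1.79%, 7.15% and 3.44% of all promoters, respectively. No match to these letters was shared by all 5 windows.

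The libraries held between 1101767 and 1537037 counts, with a median of 1277237.5, and depth was greater in treated than in control libraries. The single gene AY036118 took 44.4% to 50.3% of the counts of each library, and 3 counts corresponded to 1.95 to 2.72 CPM. Levels below are normalised CPM, which are counts scaled to the same library total (CPM) after scaling by TMM factors, as mean ± SD of the 2 libraries of a group. Of 49997 genes, 6901 had a mean count of at least 10 and were tested, and all 7 genes passed this filter. A gene was called when its edgeR quasi-likelihood test gave a Benjamini-Hochberg adjusted p under 0.05 and a change of at least 2-fold. Adar, which encodes ADAR1, had counts of 5 and 5 under vehicle, 7 and 6 under 12-HETE, 2 and 8 for empty vector and 181 and 140 under ADAR1 p150 overexpression. It rose with overexpression by a log2 fold change of 4.68 (SE 0.32, edgeR adjusted p = 6.4e-14) and did not pass the test with 12-HETE (log2 fold change 0.18, edgeR adjusted p = 0.855). Of 6 epithelial markers, 4 passed the count filter, and their summed counts ranged from 201 to 379 over the 8 libraries, while Cdh1 was at 0 in all and Epcam had at most 4 counts. The 3 mesenchymal markers summed to 311 to 705 counts. Markers of other cells were low, with 10 to 26 summed counts for 5 immune markers (Adgre1 and Cd3e at 0), 1 to 11 for 3 endothelial markers and 2 to 9 for 3 fibroblast markers. The immune sum was 17 to 22 with vehicle, 10 to 13 with 12-HETE, 22 to 24 with vector and 16 to 26 with overexpression, nearly all of it from Cd68, which did not pass the test with 12-HETE (log2 fold change -1.01, edgeR adjusted p = 0.052). The endothelial sum was 8 to 10, 1 to 3, 6 to 9 and 2 to 11 in the same order, where Cdh5 had counts of 9 and 7 under vehicle and was at 0 in both 12-HETE libraries, while Pecam1 and Kdr had at most 2 counts in these 4 libraries. The part of these markers in the results was not tested.

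All 7 genes had lower levels in both 12-HETE libraries than in any of the 6 other libraries, whereas with ADAR1 p150 overexpression 4 were above vector, 2 overlapped it and 1 was below it. Both overexpression libraries lay above both vector libraries for 33.7% of all tested genes. The 12-HETE libraries lay below the 6 other libraries for 14.3% of all tested genes. All 7 were among the genes called lower with 12-HETE, which made up 8.25% of the genes tested, and the rule fixes that count. In bulk RNA, fewer cells that express a gene and less RNA per cell cannot be told apart.

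**Figure D1:**
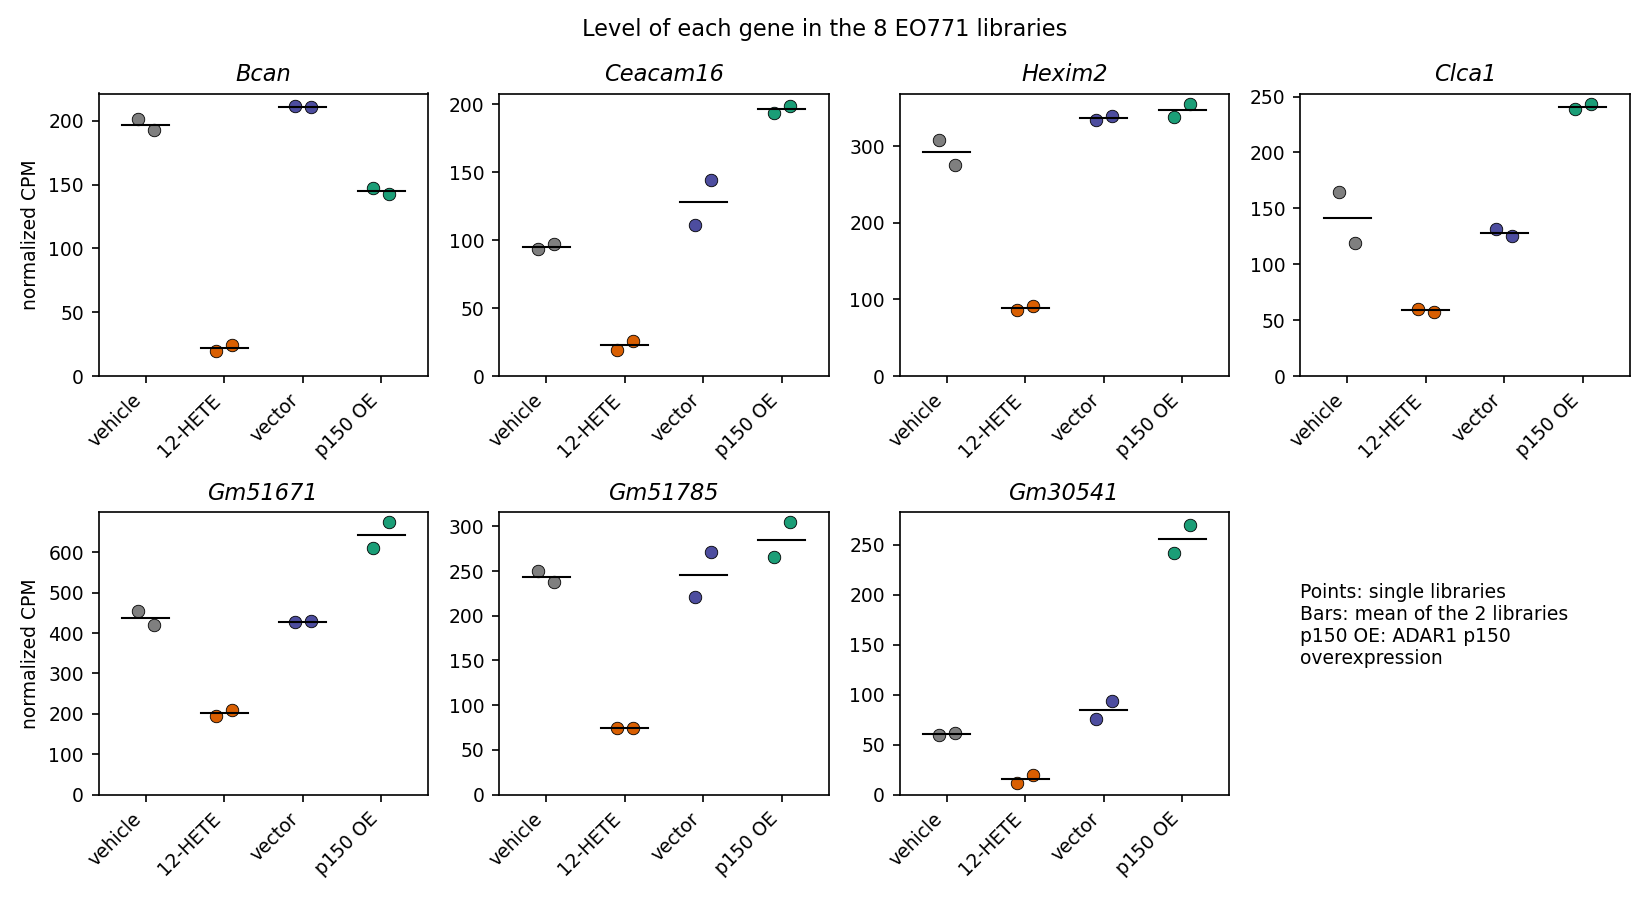
Normalised CPM of each of the 7 genes (vertical axis, from 0, a separate scale for each gene) in the 4 groups (horizontal axis), with a point for each library and a bar for the mean of 2 libraries. The 12-HETE points are the lowest in every panel, while the ADAR1 p150 overexpression points lie above those of vector for Ceacam16, Clca1, Gm51671 and Gm30541, overlap them for Hexim2 and Gm51785, and lie below them for Bcan.

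The transcription elongation gene Hexim2 had counts of 360 and 332 under vehicle, 120 and 120 under 12-HETE, 366 and 388 for empty vector, and 481 and 470 under ADAR1 p150 overexpression. The 12-HETE libraries were clearly the lowest, and the vector and overexpression libraries overlapped once scaled for depth. Its level was 292 ± 23.2 CPM with vehicle and 88.7 ± 4.46 with 12-HETE (n = 2 each), a 3.29-fold lower level and a log2 fold change of -1.72 (SE 0.12). With vector and overexpression it was 337 ± 3.48 and 347 ± 12.0 CPM (n = 2 each), a ratio of 1.03 and a log2 fold change of 0.04 (SE 0.11). The sign of this small value was not stable, since it was -0.06 with no count minimum and -0.010 without vehicle replicate 5.

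For the brain proteoglycan gene Bcan, the counts were 235 and 232 under vehicle, 27 and 32 under 12-HETE, 232 and 241 for empty vector, and 209 and 189 under ADAR1 p150 overexpression. Of the 7 genes it showed the lowest log2 fold change with 12-HETE, -3.17 (SE 0.17), which ranked 37 from the lowest of 6901 genes. The level was 197 ± 6.16 CPM with vehicle and 21.9 ± 3.71 with 12-HETE (n = 2 each), which is 9.0-fold lower. Bcan was also the gene that fitted the second part of its selection least well. Both overexpression libraries were below both vector libraries, at 145 ± 2.94 against 211 ± 0.852 CPM (n = 2 each), and the log2 fold change was -0.54 (SE 0.13). Such separation below vector was present in 26.3% of all tested genes. The difference between the 2 log2 fold changes was 2.63 (SE 0.22).

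The tectorial membrane gene Ceacam16 gave counts of 109 and 117 under vehicle, 27 and 34 under 12-HETE, 122 and 165 for empty vector, and 275 and 263 under ADAR1 p150 overexpression. Neither treated group overlapped its control, and the treated groups lay on opposite sides. Levels were 95.2 ± 2.65 CPM with vehicle and 22.6 ± 4.79 with 12-HETE (n = 2 each), a 4.20-fold lower level and a log2 fold change of -2.07 (SE 0.20). With vector they were 128 ± 23.2 CPM and with overexpression 196 ± 3.78 (n = 2 each), a ratio of 1.54 and a log2 fold change of 0.62 (SE 0.14). The 2 vector libraries differed by more than those of the other groups. Both were above the vehicle libraries (log2 fold change of vector over vehicle 0.43, SE 0.16), a difference that was not called.

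Counts of the goblet cell gene Clca1 were 192 and 143 under vehicle, 84 and 75 under 12-HETE, 144 and 143 for empty vector, and 339 and 322 under ADAR1 p150 overexpression. The vehicle libraries were spread more widely than those of any other group, yet both stayed above the 12-HETE libraries. Levels were 142 ± 32.3 CPM with vehicle and 58.7 ± 1.75 with 12-HETE (n = 2 each), a 2.41-fold lower level and a log2 fold change of -1.27 (SE 0.16), which was -1.01 without vehicle replicate 4 and -1.55 without vehicle replicate 5. With vector the level was 128 ± 4.6 CPM and with overexpression 241 ± 3.48 (n = 2 each). That is a ratio of 1.88 and a log2 fold change of 0.91 (SE 0.14), under the 2-fold required for a call.

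Among the long non-coding genes, Gm30541 differed most between the treatments. Its counts were 70 and 74 under vehicle, 16 and 25 under 12-HETE, 83 and 107 for empty vector, and 343 and 357 under ADAR1 p150 overexpression. The 12-HETE libraries were the lowest and the overexpression libraries the highest. The level was 60.7 ± 1.04 CPM with vehicle and 15.3 ± 5.47 with 12-HETE (n = 2 each), which is 3.97-fold lower with a log2 fold change of -1.99 (SE 0.24). Overexpression libraries had 256 ± 20.2 CPM against 84.6 ± 12.5 with vector (n = 2 each), which is 3.02-fold higher with a log2 fold change of 1.59 (SE 0.15). Gm30541 was the only one of the 7 genes within the limits of a call of higher with overexpression, met by 8.11% of the genes tested. None of the 7 met those of a call of lower, as 4.69% did. Calls of lower with 12-HETE and higher with overexpression were made together for 19 genes, or 0.275% of the genes tested, and Gm30541 was 1 of them. The rule chose the 7 genes on these values, so their calls are a description and not a test. The difference between its 2 log2 fold changes, 3.58 (SE 0.28), ranked 13 from the highest. Chromosome 19 as a whole was somewhat low, with a median log2 fold change over its tested genes of -0.36 (12-HETE) and -0.22 (overexpression), and relative to these medians the values of Gm30541 were -1.63 and 1.81.

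Gm51785 had counts of 292 and 286 under vehicle, 105 and 97 under 12-HETE, 242 and 310 for empty vector, and 378 and 403 under ADAR1 p150 overexpression. The 12-HETE libraries were separate from the rest, and the overexpression libraries overlapped the vector libraries once scaled for depth. Levels were 244 ± 8.99 CPM with vehicle, 74.6 ± 0.434 with 12-HETE, 246 ± 35.3 with vector and 285 ± 27.4 with overexpression (n = 2 each). The log2 fold changes were -1.71 (SE 0.14) with 12-HETE, which is 3.27-fold lower, and 0.21 (SE 0.12) with overexpression.

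For Gm51671 the counts were 531 and 506 under vehicle, 271 and 273 under 12-HETE, 467 and 492 for empty vector, and 867 and 894 under ADAR1 p150 overexpression. The 12-HETE libraries were below and the overexpression libraries above all controls, while vehicle and vector libraries were close together. Levels were 437 ± 24.6, 201 ± 11.1, 428 ± 2.54 and 643 ± 46.6 CPM in that order of groups (n = 2 each). Its log2 fold change with 12-HETE, -1.12 (SE 0.11), was the smallest in size of the 7 genes, at 2.17-fold lower, and that with overexpression was 0.59 (SE 0.10), a ratio of 1.5.

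Set side by side, the log2 fold changes of the 7 genes ran from -3.17 to -1.12 with 12-HETE, and those with ADAR1 p150 overexpression ran from -0.54 to 1.59, where the medians over all tested genes were 0.0044 and 0.066. The differences between the 2 contrasts ran from 1.71 for Gm51671 to 3.58 for Gm30541, and 6.14% of all tested genes were called higher in this difference. With 12-HETE, 569 genes were called lower, and 398 of these (5.77% of the genes tested) were not called lower with overexpression, so the pattern used for selection is shared with many other genes. A log2 fold change above 0 with overexpression was found for 142 of the 569 genes, or 2.06% of the genes tested, and the difference between the contrasts was called for 189, or 2.74%. Both vector libraries were above both vehicle libraries for Bcan, Ceacam16, Hexim2 and Gm30541, and the control groups overlapped for Clca1, Gm51671 and Gm51785. The share of all tested genes with such separation of the controls was not calculated, so nothing is read from it for these genes. The log2 fold change of vector over vehicle was between -0.14 and 0.48, highest for Gm30541 (SE 0.18), and 3 genes (0.0435% of those tested), none of them one of the 7, were called between the controls by edgeR.

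**Figure D2:**
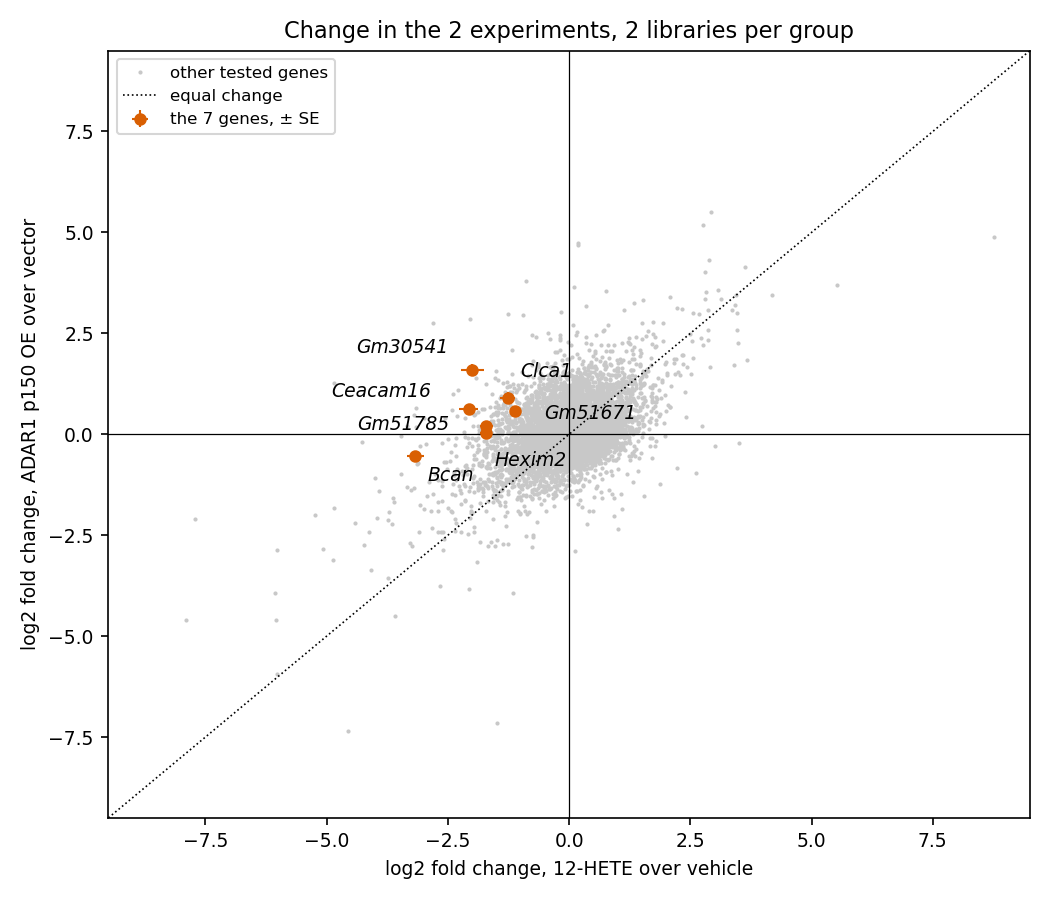
Log2 fold change of ADAR1 p150 overexpression over vector (vertical axis) against that of 12-HETE over vehicle (horizontal axis) for 6901 tested genes (grey points), with the 7 genes in orange, their bars showing ± SE, and a dotted line of equal change. All 7 lie left of 0 and above the dotted line, with Bcan lowest at -3.17 and -0.54 and Gm30541 highest at -1.99 and 1.59.

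Profiles of the 7 genes over the 8 libraries were alike, as the selection requires. Pearson correlations of log2 CPM between pairs of them ranged from 0.756 (Bcan and Gm30541) to 0.990 (Hexim2 and Gm51785), over 8 libraries that share controls and treatments. Among all other tested genes, the 10 with the highest correlation with the mean standardised profile of the 7 were Prss57 (r = 0.998), Ankrd24, Pdpr, Gm46289, Hmcn2, Selenbp2, Gm35562, C430002N11Rik, Pdgfa and Glb1l (r = 0.986). Prss57, which encodes a serine protease, had counts of 264 and 252 under vehicle, 159 and 152 under 12-HETE, 242 and 265 for empty vector, and 358 and 350 under overexpression. Its libraries followed the order seen for Gm51671, with smaller distances, and its log2 fold changes were -0.92 and 0.19. The log2 fold changes with 12-HETE were -3.15 for C430002N11Rik, -2.31 for Selenbp2, -1.94 for Ankrd24, -1.28 for Hmcn2, which encodes an extracellular matrix protein, and -0.90 for Pdgfa, which encodes a platelet-derived growth factor chain. The closest single genes were Gm40116 for Bcan (r = 0.995), C430002N11Rik for Ceacam16 (r = 0.993), Glb1l for Hexim2 (r = 0.997), Mrgprb9-ps for Clca1 (r = 0.991), Gm17796 for Gm51671 (r = 0.993), Capn5 for Gm51785 (r = 0.993) and Gm671 for Gm30541 (r = 0.991).

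The genes around the 7 were then examined, since position was not used to select them. A comparison of 5 genes on each side of each gene, together with overlapping genes, gave 74 neighbours, of which 20 were tested. With 12-HETE, 6 of the 20 fell and 0 rose (30%, against 14.4% of all tested genes), namely Hexim1, Gm16184, Pvr, Hmga2, 4930471E19Rik and Mirt1. The median log2 fold change of the 20 was -0.76. With ADAR1 p150 overexpression, Gm16174 and Mxi1 rose and 4930471E19Rik and Mirt1 fell (20%, against 12.8% of all tested genes), with a median of -0.12.

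**Figure D3:**
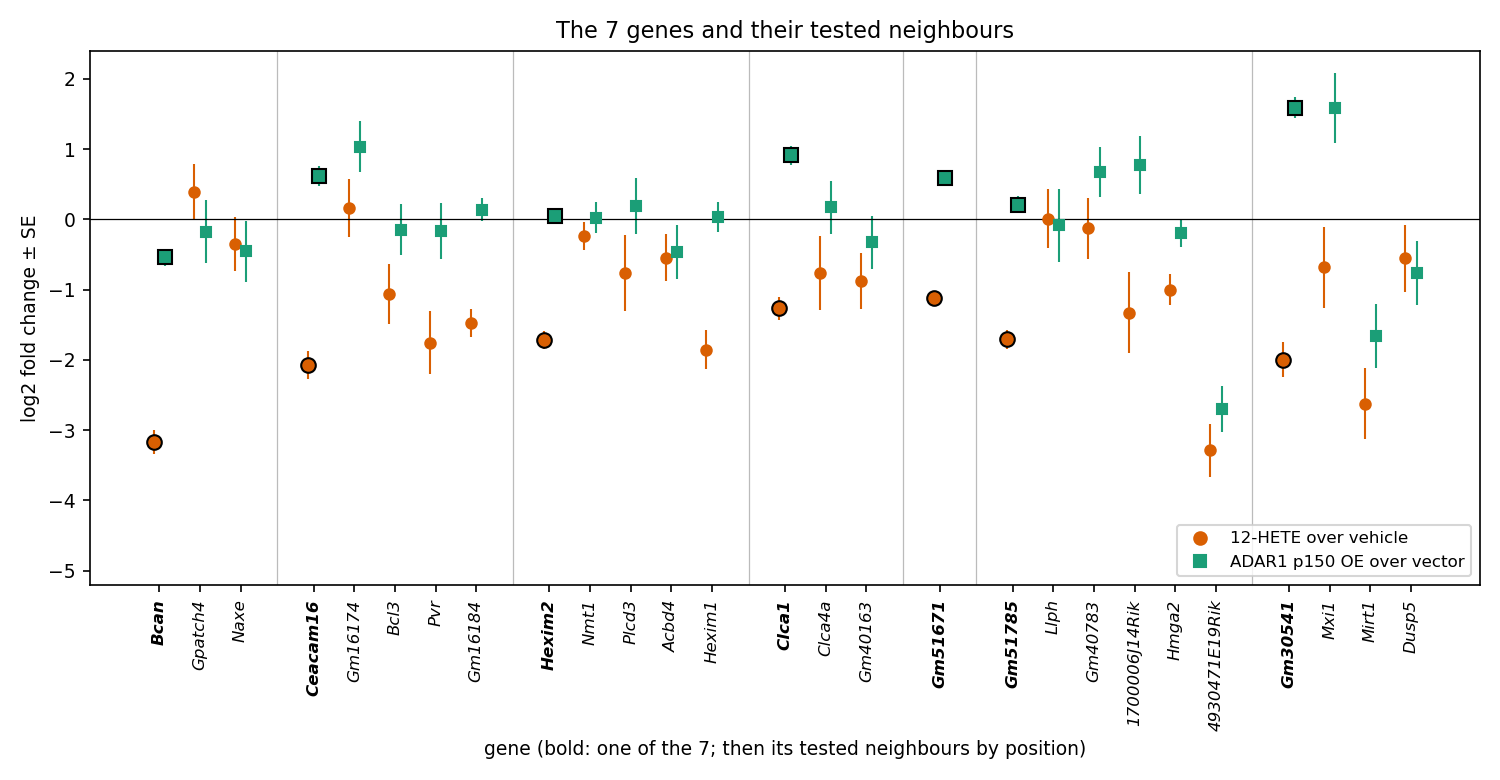
Log2 fold change ± SE with 12-HETE (circles) and with ADAR1 p150 overexpression (squares) for the 7 genes (bold names, outlined symbols) and, to the right of each, its tested neighbours. Hexim1 beside Hexim2 lies at -1.85 and 0.04, 4930471E19Rik near Gm51785 is low in both contrasts at -3.29 and -2.70, and no neighbour of Gm51671 was tested.

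Hexim1, the paralog of Hexim2 with the same role in holding P-TEFb, lies 3535 bases before it on the same strand. Hexim1 counts were 55 and 50 under vehicle, 19 and 14 under 12-HETE, 46 and 55 for empty vector, and 64 and 63 under overexpression. As for Hexim2, the 12-HETE libraries were separate from all others and the other groups were close. The level of Hexim1 fell from 44.3 ± 3.96 to 12.1 ± 2.00 CPM with 12-HETE (n = 2 each), a log2 fold change of -1.85 (SE 0.27, edgeR adjusted p = 1.7e-06), and was 45 ± 4.29 and 46.3 ± 1.84 CPM with vector and overexpression (log2 fold change 0.04, edgeR adjusted p = 0.92). The difference between these log2 fold changes was 1.89 (SE 0.35, edgeR adjusted p = 0.00021). The 2 genes are similar in sequence, and how reads that match both were counted is not given in the sources used here, so the values of Hexim1 and Hexim2 may not be separate measurements. The next genes in the same region, Acbd4, Plcd3 and Nmt1, which were named after their values were seen, had log2 fold changes of -0.54, -0.76 and -0.23 with 12-HETE and were not called.

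Near Ceacam16, Gm16184, a pseudogene on the plus strand within the span of Pvr and 40.4 kb away, had counts of 140 and 91 under vehicle, 52 and 43 under 12-HETE, 100 and 123 for empty vector, and 157 and 144 under overexpression. Its 12-HETE libraries were the lowest of all. Gm16184 fell with 12-HETE (log2 fold change -1.47, SE 0.20, edgeR adjusted p = 5.6e-07), did not pass the test with overexpression (log2 fold change 0.14, edgeR adjusted p = 0.61) and differed between the contrasts by 1.61 (edgeR adjusted p = 4.5e-05). Pvr, on the opposite strand to it, encodes a cell adhesion receptor of the nectin family and had counts of 18 and 27 with vehicle and 4 and 11 with 12-HETE. Pvr fell with 12-HETE (log2 fold change -1.75, edgeR adjusted p = 0.0027), and without 12-HETE replicate 4 the call was lost (-1.16, edgeR adjusted p = 0.096). Gm16174, a long non-coding gene 33.5 kb from Ceacam16, rose with overexpression (log2 fold change 1.03, edgeR adjusted p = 0.033). This call was lost in DESeq2 (adjusted p = 0.30), with no count minimum and with a replicate block (edgeR adjusted p = 0.14 and 0.052). It was also lost, at just under 2-fold, with RLE factors, a fit of 4 libraries and totals without AY036118 (log2 fold change 0.98 in each). Gm19345, which covers 32.4% of the span of Ceacam16 on the opposite strand, had at most 1 count in any library.

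**Figure D4:**
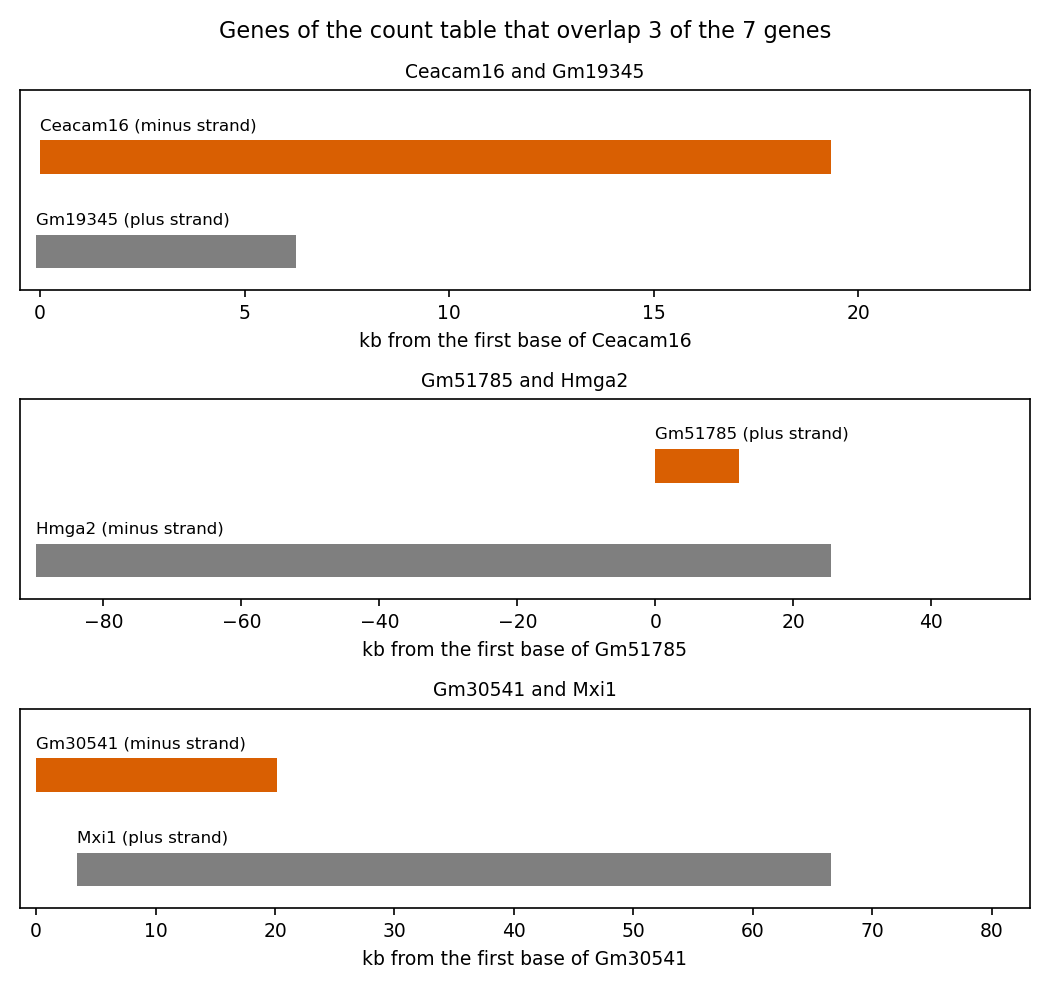
Spans of 3 of the genes (orange) and of the gene of the count table that overlaps each (grey), in kilobases from the first base of the orange gene by coordinate, with strands as labelled. Gm51785 lies wholly within Hmga2, Gm30541 overlaps the start of Mxi1, and Ceacam16 overlaps Gm19345.

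Gm51785 lies wholly within Hmga2, which is on the opposite strand and encodes an architectural chromatin protein of embryonic and tumour cells. Hmga2 counts were 59 and 80 under vehicle, 41 and 38 under 12-HETE, 82 and 73 for empty vector, and 76 and 90 under overexpression. Both 12-HETE libraries of Hmga2 were below the other 6, as for Gm51785. Hmga2 fell with 12-HETE by a log2 fold change of -1.0 (SE 0.22, edgeR adjusted p = 0.00069), which is at the 2-fold limit and was under it without vehicle replicate 5 (-0.86) or with a replicate block (-0.99). With overexpression its log2 fold change was -0.19, and the difference between the contrasts was 0.81 (edgeR adjusted p = 0.062). Farther away, the long non-coding gene 4930471E19Rik at 169.9 kb fell in both contrasts, from counts of 55 and 41 with vehicle to 6 and 5 with 12-HETE and from 59 and 48 for empty vector to 10 and 10 under overexpression. These changes of 4930471E19Rik were -3.29 (edgeR adjusted p = 1.2e-08) and -2.70 (edgeR adjusted p = 5.5e-08). The long non-coding gene 1700006J14Rik, singled out after its values were seen, was not called in either contrast (log2 fold changes -1.33 and 0.77), and the difference between them passed the test at 2.10 (edgeR adjusted p = 0.039).

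Gm30541 shares 83.2% of its span with Mxi1, a gene on the opposite strand that encodes a MAX-binding repressor that opposes MYC. Mxi1 counts were 11 and 6 under vehicle, 7 and 5 under 12-HETE, 9 and 2 for empty vector, and 21 and 20 under overexpression. Its overexpression libraries were the highest, as for Gm30541, and its 12-HETE libraries overlapped vehicle. Mxi1 rose with overexpression by a log2 fold change of 1.58 (SE 0.50, edgeR adjusted p = 0.017), and the call was lost without vector replicate 2 (0.86, edgeR adjusted p = 0.30). With 12-HETE the log2 fold change was -0.68 (edgeR adjusted p = 0.41), and the difference of 2.27 (edgeR adjusted p = 0.042) did not pass with a replicate block (edgeR adjusted p = 0.055). Mirt1, a long non-coding gene 114.3 kb away, fell with 12-HETE (log2 fold change -2.62, edgeR adjusted p = 0.00013) and with overexpression (-1.66, edgeR adjusted p = 0.0065), the latter not called by DESeq2 (adjusted p = 0.091).

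Partners of Hexim2 in the control of P-TEFb were examined with a list of 21 genes, of which 11 were tested. With 12-HETE, Hexim1 and Rn7sk fell and 0 genes rose (18.2%, against 14.4% of all tested genes). The median log2 fold change of the 11 was -0.07. Rn7sk, the 7SK RNA that HEXIM proteins bind, had counts of 59 and 75 under vehicle, 51 and 15 under 12-HETE, 29 and 31 for empty vector, and 34 and 21 under overexpression. Only 1 of the 12-HETE libraries of Rn7sk was below the range of the other groups. The log2 fold change of Rn7sk was -1.21 (SE 0.29, edgeR adjusted p = 0.0014), and without 12-HETE replicate 5 it was -0.63 (edgeR adjusted p = 0.11). The controls of Rn7sk also differed, with a log2 fold change of vector over vehicle of -1.07 (SE 0.29, edgeR adjusted p = 0.13). Its mean level was 56.4 CPM with vehicle, 23.9 with 12-HETE and 26.8 with vector. Rn7sk has near-identical copies in the genome, so its counts are uncertain. Of the kinase complex itself, Ccnt1 was tested and not called, whereas Cdk9 had at most 7 counts and Larp7, a 7SK-binding protein, at most 14, both below the count filter. With overexpression, Nelfa, a subunit of the negative elongation factor, rose by a log2 fold change of 1.28 (edgeR adjusted p = 0.041). No other gene of the list was called (9.09%, against 12.8% of all tested genes). The Nelfa call was lost in DESeq2 (adjusted p = 0.30) and with a replicate block (edgeR adjusted p = 0.051). The median of the list was -0.26.

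**Figure D5:**
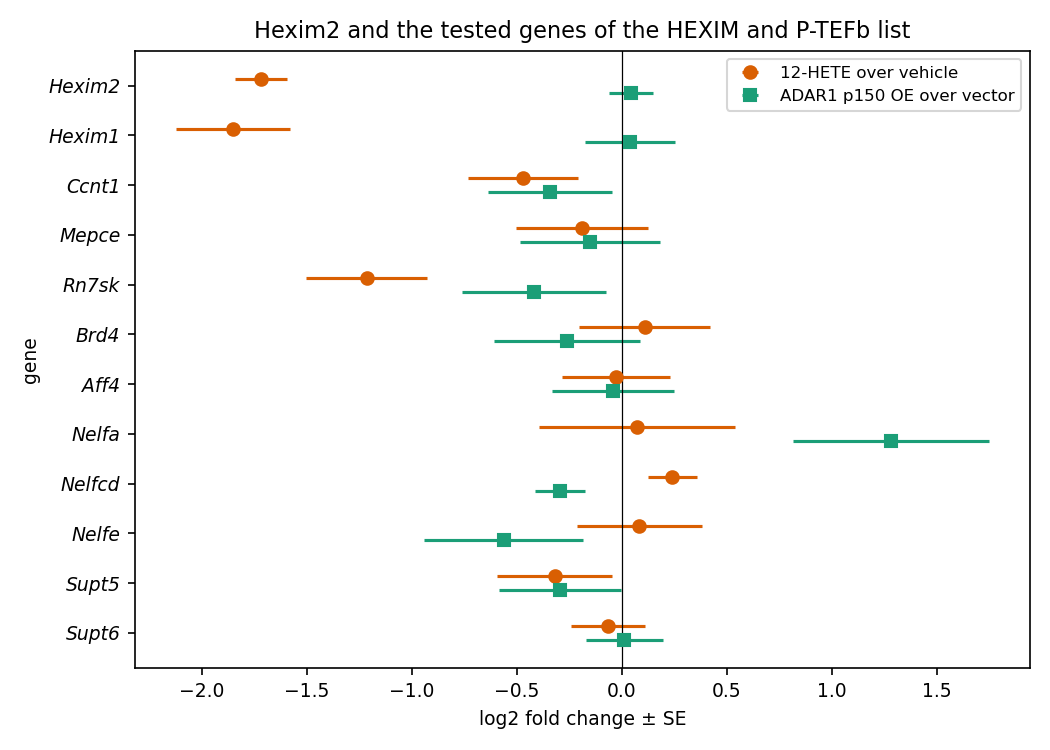
Log2 fold change ± SE (horizontal axis) with 12-HETE (circles) and with ADAR1 p150 overexpression (squares) for Hexim2 and the 11 tested genes of the HEXIM and P-TEFb list (vertical axis). Hexim2 and Hexim1 lie near -1.72 and -1.85 with 12-HETE and at 0.04 with overexpression, Rn7sk lies at -1.21 with 12-HETE, and the other genes lie closer to 0 with 12-HETE.

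Relatives and partners of Bcan were examined with a list of 22 brevican and hyaluronan matrix genes, of which 7 were tested. With 12-HETE, Vcan rose and 0 fell, with a median log2 fold change of -0.07, and with ADAR1 p150 overexpression Vcan, Tnr and Has1 rose and 0 fell, with a median of 0.56. Vcan, which encodes the lectican versican, had counts of 6 and 4 under vehicle, 14 and 18 under 12-HETE, 7 and 3 for empty vector, and 20 and 28 under overexpression. Both treated groups of Vcan were above their controls, the opposite side to Bcan. The log2 fold changes of Vcan were 1.47 (edgeR adjusted p = 0.028) and 1.95 (edgeR adjusted p = 0.0022), and neither was called by DESeq2 (adjusted p = 0.22 and 0.073). Tnr, which encodes the brevican ligand tenascin-R, had counts of 15 and 16 under vehicle, 14 and 21 under 12-HETE, 9 and 10 for empty vector, and 48 and 67 under overexpression. It rose with overexpression (log2 fold change 2.30, SE 0.35, edgeR adjusted p = 3.8e-06), was at -0.01 on the same scale with 12-HETE, and differed between the contrasts (2.31, edgeR adjusted p = 0.0023). Has1, a hyaluronan synthase, had counts of 427 and 366 under vehicle, 590 and 615 under 12-HETE, 424 and 392 for empty vector, and 1058 and 1053 under overexpression. Its log2 fold change was 1.08 with overexpression (edgeR adjusted p = 5.2e-10), just under 2-fold with no count minimum (0.97) and without vector replicate 2 (0.99), and 0.41 with 12-HETE (edgeR adjusted p = 0.0031), the latter under 2-fold. The other lecticans of nervous tissue and cartilage, Ncan and Acan, had at most 1 and 3 counts.

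Of 28 genes in the Ceacam and tectorial membrane list, Ceacam1 and Ceacam2 were tested, too few for a share of calls to be read. Ceacam1, a cell adhesion receptor of epithelial and immune cells, had counts of 59 and 68 under vehicle, 107 and 87 under 12-HETE, 45 and 48 for empty vector, and 126 and 106 under overexpression. Both treated groups were above their controls. Ceacam1 rose with overexpression by a log2 fold change of 1.02 (SE 0.19, edgeR adjusted p = 7.9e-05). This was under 2-fold, and so not called, with DESeq2 (0.97), RLE factors (0.96) and no count minimum (0.92). The same held for a fit of 4 libraries and totals without AY036118 (0.97 in each). With 12-HETE the log2 fold change of Ceacam1 was 0.42 (edgeR adjusted p = 0.082). The median of the 2 genes was 0.45 with 12-HETE and 0.74 with overexpression. Ceacam1 and Ceacam2 are near-identical in part, so their counts may include reads of each other.

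The list of Clca genes, chloride channels and mucus genes held 23 genes, of which 6 were tested. With 12-HETE, Clcn5 rose and Ano6 and Muc5b fell (50%, against 14.4% of all tested genes), with a median log2 fold change of -0.90. With overexpression Clcn5 rose and Clcn2 fell (33.3%, against 12.8% of all tested genes), with a median of 0.31. In a list of 6 tested genes, each call moves these shares a great deal. Muc5b, a gel-forming mucin of secretory epithelia, had counts of 33 and 33 under vehicle, 16 and 14 under 12-HETE, 18 and 26 for empty vector, and 33 and 41 under overexpression. Its 12-HETE libraries were the lowest of the 8, as for Clca1. Muc5b fell with 12-HETE (log2 fold change -1.32, SE 0.33, edgeR adjusted p = 0.0021), was at 0.46 with overexpression (edgeR adjusted p = 0.28) and differed between the contrasts by 1.78 (edgeR adjusted p = 0.0050), although not in DESeq2 (adjusted p = 0.064). Clcn5, an endosomal chloride and proton exchanger, rose in both contrasts by log2 fold changes of 2.15 (edgeR adjusted p = 2.9e-06) and 1.78 (edgeR adjusted p = 0.00015). Ano6, a phospholipid scramblase and ion channel, fell by 1.04 on the log2 scale with 12-HETE (edgeR adjusted p = 0.00013), which was under 2-fold without 12-HETE replicate 5 (-0.85). Clcn2, a chloride channel, had a log2 fold change of -1.22 with overexpression (edgeR adjusted p = 0.013), a call lost in DESeq2 (adjusted p = 0.14). Clca2 had counts of 7 and 7 under vehicle, 0 and 0 under 12-HETE, 6 and 6 for empty vector, and 4 and 3 under overexpression. Ano1, the channel that CLCA1 acts on and a gene singled out after its values were seen, had counts of 21 and 16 under vehicle, 0 and 0 under 12-HETE, 9 and 13 for empty vector, and 5 and 3 under overexpression. Both were below the count filter and were not tested, and in both the 12-HETE libraries were the only ones at 0.

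Over the 4 lists together, 26 of 94 genes were tested. With 12-HETE 2 rose and 4 fell (23.1%, against 14.4% of all tested genes), and with ADAR1 p150 overexpression 6 rose and 1 fell (26.9%, against 12.8%). The difference between the contrasts was called for Hexim1, Tnr and Muc5b, each of them higher with overexpression relative to 12-HETE, out of 26 genes, where 8.33% of all tested genes had such a call.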

How the data were processed

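RNA-seq of EO771 cells gave 8 libraries in 4 groups of 2. The authors deposited raw counts per gene without normalisation. For RNA editing of these treatments, the paper's methods name prinseq to remove duplicates and STAR to align to GRCm38. For expression they refer back to a standard process with STAR and featureCounts. Whether duplicates were removed before these counts were made is not stated. Such removal, if used, would lower the counts of abundant genes most.

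A mean count of 10 or more was required of a gene, and all libraries were fitted in one model with a coefficient per group in edgeR 4.0.16 (R 4.3.3), with TMM factors, quasi-likelihood tests and Benjamini-Hochberg adjustment over 6901 genes. The SE of a log2 fold change was obtained from its size and the F statistic. Replicates of a group differed by more than counting noise (mean chi-square per gene 1.40 to 1.71). The 7 genes and the lists were chosen with earlier results of these data known. Genes were named as the 7, overlapping genes, called neighbours, called genes of the lists, paralogs, Adar and the genes most like the 7; AY036118, Ceacam2, Ccnt1, Cdk9 and Larp7 were named after their values were seen. Alternatives were DESeq2 1.42.0, RLE factors, other count minimums, a fit of 4 libraries, thinned libraries, totals without AY036118, adjusted p alone, a replicate block and leaving out each library. The replicate numbers come from the sample labels, and deviations of same-numbered libraries correlated at -0.0798 and -0.114. A simulation of 6901 genes recovered 184 of 200 genes changed 4-fold and called 9 unchanged genes. The values of some genes under the naming rule are not reported here. Positions are from RefSeq GRCm38.p6 and further strands from GENCODE M21.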

Additional observations from a re-analysis of the deposited data

How the results depend on the processing

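The log2 fold changes of the 7 genes with 12-HETE kept their sign in each of 8 other settings and with each of the 8 libraries left out, and those with ADAR1 p150 overexpression did so apart from the small value of Hexim2. DESeq2 called 590 genes with 12-HETE (991 in edgeR), 441 with overexpression (884), 254 for the difference (575) and 0 between the controls (3, and 232 at an unadjusted p under 0.05), and with overexpression 3 list genes (7) and 1 neighbour (4). A minimum of 10 counts in every library, which tests fewer genes, gave 481, 429 and, between the controls, 0 (540 at an unadjusted p under 0.05), with 3 neighbours called with 12-HETE and 1 with overexpression, and 2 list genes with overexpression. With no minimum, 10 neighbours were called with 12-HETE and 11 genes between the controls, where RLE factors gave 6, the fit of 4 libraries 1 and totals without AY036118 8. The adjusted p alone, without the fold limit, gave 2021 with 12-HETE, 1766 with overexpression, 1033 for the difference and 8 between the controls. With 1 library left out, the calls ranged from 845 to 1010 with 12-HETE, 709 to 887 with overexpression, 460 to 544 for the difference and 2 to 22 between the controls (22 without vector replicate 2 and 11 without vehicle replicate 4). List genes ranged from 3 (without 12-HETE replicate 5) to 6 with 12-HETE and from 4 (without vector replicate 2 or overexpression replicate 1) to 7 with overexpression. Neighbours ranged from 5 to 7 with 12-HETE and from 1 (without overexpression replicate 1) to 4 with overexpression, with 2 called without vector replicate 1, vector replicate 2 or overexpression replicate 2. A group left with 1 library was assumed to vary like the other groups. With a replicate block, 942 genes were called with 12-HETE, 813 with overexpression and 506 for the difference, with 6 list genes and 5 neighbours with 12-HETE and 6 and 3 with overexpression. The numbers did not pair the libraries. The crossed pairing, chosen after seeing the data, gave 921 with overexpression and 633 for the difference. At these depths, genes with fewer than about 10 counts per library, such as most Ceacam genes, could not be compared. The cause of these shifts was not tested.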

Other observations

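Besides Gm30541, 18 of the 19 genes called lower with 12-HETE and higher with ADAR1 p150 overexpression by edgeR were not among the 7, and those named here were singled out after their values were seen. They included Fgf1, which encodes a fibroblast growth factor and had log2 fold changes of -1.93 (SE 0.48) and 1.40 (SE 0.34), Scd3, a stearoyl-CoA desaturase (-1.18, SE 0.41, and 2.09, SE 0.28), and Slc22a5, a carnitine transporter (-4.86, SE 0.78, and 1.28, SE 0.46), whose mean count of 10.6 was close to the filter. The long non-coding or predicted genes Gm18258 (-2.81 and 2.75) and Gm40424 (-2.04 and 2.85) showed the same pattern at mean counts of 27 and 25.3. Scd3 has close paralogs, and reads shared with them cannot be told apart here.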
